A study of Mus musculus with 12 samples.

Results

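Loss of the transcription factor ATF7 was examined in the liver of naturally conceived male mice, by setting the arrays of 3 Atf7-/- mice from natural mating against those of 3 wild-type (WT) mice from natural mating. These 6 arrays were chosen by the titles of the samples and belong to a series of 12, and all 34760 probe sets of the deposited table entered the comparison. The series holds 4 groups of 3 male mice on the C57BL6/JJmsSlc background, with 1 Affymetrix Mouse Gene 1.0 ST array of total liver RNA for each mouse at an age of 4 weeks in the sample records. The paper on the series gives an age of 3 weeks instead, and the difference was not resolved. The groups are Atf7-/- from natural mating, Atf7-/- from in vitro fertilization (IVF), WT from IVF and WT from natural mating. Atf7-/- pups came from Atf7-/- fathers and mothers, and WT pups from WT fathers and mothers, so that the genotype of the pup, the genotype of its parents and rearing by a mother of that genotype cannot be told apart. The knockout is present in the whole body and is not limited to hepatocytes. The livers of a group were taken from the offspring of different mothers, and the IVF pups were carried by recipient females. Neither the hour at which livers were taken nor the part of the gene that was deleted is given in the sources used here.

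ATF7 is a basic leucine zipper protein of the ATF2 family that binds the cyclic AMP response element, a palindromic DNA site. It is known as a repressor that brings histone H3 lysine 9 methyltransferases, among them SETDB1 (also called ESET) and G9a (encoded by Ehmt2), to its target genes. Phosphorylation by the stress kinase p38 releases it from those genes, and transcription then rises. Liver is the main site of cholesterol, bile acid and drug metabolism. The question put to these samples was which liver transcripts depend on ATF7 without any manipulation of the embryo.

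The values are log2 expression values after robust multiarray averaging (RMA), and a fold change is the log2 difference of Atf7-/- over WT. Array medians lay between 6.26 and 6.34. Arrays of the Atf7-/- natural mating group correlated with each other at 0.989 to 0.99 over all probe sets, those of the WT natural mating group at 0.98 to 0.988, and arrays of different genotype at 0.973 to 0.978. The third WT natural mating array stood apart from the other arrays of its group (r = 0.98 to 0.982). Some of the counts that it moves are given with and without it, while other list counts below also shift without it. Hepatocyte markers were at high levels in every array, with summed linear levels of 70100 to 71900 in Atf7-/- livers and 71500 to 74900 in WT livers, and albumin (Alb) differed by -0.18 (SE 0.08, adjusted p = 0.188). Markers of exocrine pancreas (0 of 9 called), adipocytes (0 of 6) and skeletal muscle (0 of 8) gave no call in either direction.

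Atf7 itself was the first check of the labels. Its probe set gave 5.82, 6.11 and 5.94 in Atf7-/- livers, against 8.94, 8.81 and 8.58 in WT livers. The groups were far apart, and the knockout values lay below the median of their arrays. Atf7 fell by 2.82 on the log2 scale (SE 0.19, adjusted p = 1.93e-05, limma with Benjamini-Hochberg adjustment over all 34760 probe sets). In IVF livers the same probe set averaged 5.52 in Atf7-/- and 8.04 in WT. A second Atf7 probe set gave 8.71, 8.61 and 8.72 in Atf7-/- livers and 9.27, 8.87 and 8.92 in WT livers. These values differed by only -0.34 (SE 0.11, adjusted p = 0.0758), and whether its probes lie inside the deleted part was not tested.

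A probe set was called where the adjusted p was at most 0.05 and the log2 fold change at least 0.6 in size. Loss of ATF7 in naturally conceived mice gave 1332 probe sets called higher (3.83% of all) and 1274 called lower (3.67%). The median change was 0.83 among the higher calls and -0.91 among the lower ones, and 386 higher and 524 lower calls reached a fold of 2. Of the higher calls 26.2% and of the lower calls 54.1% had no symbol in the annotation, against 33.9% of all probe sets, so the split was less even among named genes. With 1 probe set for each of 19937 genes, 860 genes were called higher (4.31%) and 379 lower (1.9%). Counts of called members in every list below are to be read beside these shares. Without the third WT array the counts over probe sets were 1339 higher and 1420 lower. Over all 6 removals of 1 array, 802 higher and 735 lower calls passed every time. Many more probe sets separated the groups without passing the test, since in 31.9% of all probe sets the 3 arrays of one genotype did not overlap the 3 of the other.

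The same genotypes after IVF gave a different count. Only 2 probe sets (0.00575%) were called between Atf7-/- and WT livers of IVF mice, both lower, and 2126 had an unadjusted p under 0.05 in limma, against 9246 in natural mating. One of them was Atf7. The other was Ifi202b, an interferon-inducible gene of the Ifi200 family, which averaged 2.97 in Atf7-/- and 5.26 in WT after IVF (log2 fold change -2.29, SE 0.165, adjusted p = 0.000752). In natural mating Ifi202b gave 3.11, 2.78 and 3.28 in Atf7-/- livers and 2.81, 3.14 and 3.16 in WT livers, with a difference of 0.02 (adjusted p = 0.956). Apart from the WT mean after IVF, these values lay below the log2 limit of 5 used for dim probe sets. The size of both differences is therefore uncertain. The difference between the 2 genotype effects, IVF minus natural mating, was tested as an interaction and was called in 2148 probe sets (6.18%). This test uses the natural mating arrays of both genotypes as well, so its calls are no separate evidence for those of the natural mating comparison.

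The 15 largest rises, taken only from called probe sets without overlap between the genotypes, ran from 1.78 to 3.12. Akr1c18, the 20-alpha-hydroxysteroid dehydrogenase that inactivates progesterone, gave 10.19, 11.01 and 11.05 in Atf7-/- livers against 7.42, 8.07 and 7.39 in WT livers. The rise of Akr1c18 was 3.12 (SE 0.63, adjusted p = 0.00774). The water channel gene Aqp8 gave 11.44, 11.74 and 11.45 against 9.60, 8.93 and 8.70 (2.46, SE 0.29, adjusted p = 0.000422). Fabp5, a fatty acid binding protein better known from skin, rose on both of its probe sets, by 2.05 and 2.19. The steadiest of the large rises was that of the ubiquitin ligase gene Rnf144b, with 10.57, 10.56 and 10.54 in Atf7-/- livers and 8.16, 8.41 and 8.64 in WT livers. Its knockout values lay within a few hundredths of each other, and it rose by 2.16 (SE 0.11, adjusted p = 5.17e-06). Ly96, which encodes the MD-2 subunit of the lipopolysaccharide receptor, rose by 2.04, the choline transporter gene Slc44a1 by 2.11, the retinol dehydrogenase gene Rdh11 by 2.01 and the matrix protein gene Spon2 by 1.94. Map1lc3b, an autophagosome protein, and Prxl2a, a peroxiredoxin-like protein, rose by 1.85 and 1.83. Further rises were those of Acot2, a mitochondrial acyl-CoA thioesterase (1.85), Cyp2c55 (1.85), Serpina7, the thyroxine-binding globulin (1.81), Sprr1a (1.81) and Idi1 (1.78). The calls of Cyp2c55, Serpina7, Sprr1a and Idi1 ended in 2, 3, 4 and 1 of the 6 fits with 1 array left out, with adjusted p of up to 0.0587, 0.0707, 0.0773 and 0.0506 in this order.

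The 15 largest falls were taken by the same rule. They are given without genes named Snora or Snord, which are described further down. Of those, Snord118, Snora73b, Snora73a and Snora44 fell more than any of the 15. Of these 15, 7 were of transcripts that are not translated or that encode parts of the RNA processing and ribosomal machinery. Vaultrc5, a vault RNA made by RNA polymerase III, gave 7.42, 7.97 and 7.82 in Atf7-/- livers and 10.61, 11.34 and 11.25 in WT livers. It fell by 3.33 (SE 0.2, adjusted p = 1.12e-05), with a wide gap between the groups. Pigr, the polymeric immunoglobulin receptor, gave 8.60, 8.43 and 8.18 against 9.91, 10.68 and 11.35 (-2.24, SE 0.51, adjusted p = 0.0143). The WT values of Pigr were spread over more than a log2 unit, and its call ended without the third Atf7-/- array (adjusted p = 0.0536). Nnmt, which methylates nicotinamide, gave 7.10, 7.84 and 7.96 against 9.0, 10.33 and 9.38 (-1.94, adjusted p = 0.0319) and was called in only 1 of the 6 fits that left out an array. Srsf5, an SR splicing factor, fell by 1.82 on this probe set and by 1.34 on another. Myo9a, an unconventional myosin, gave 7.72, 7.79 and 7.65 against 9.40, 9.62 and 9.59, a fall of 1.81 (SE 0.11, adjusted p = 1.17e-05), and 8 of its 13 probe sets were called, all of them lower. The remaining falls among the 15 were those of Rnu3a (-2.04), Rps12 (-1.80), Atp5l (-1.79), Tmem38b (-1.77), the clock gene Per3 (-1.77), the snoRNA host gene Snhg17 (-1.75), the mitochondrial import gene Timm8a1 (-1.74), the nuclear RNA Malat1 (-1.72) and Rmrp (-1.69), besides Atf7. The call of Rnu3a ended without any one of 3 arrays, with an adjusted p of up to 0.0752. Other probe sets of Rps12, Atp5l, Tmem38b and Snhg17 include ones that were not called.

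**Figure D1:**
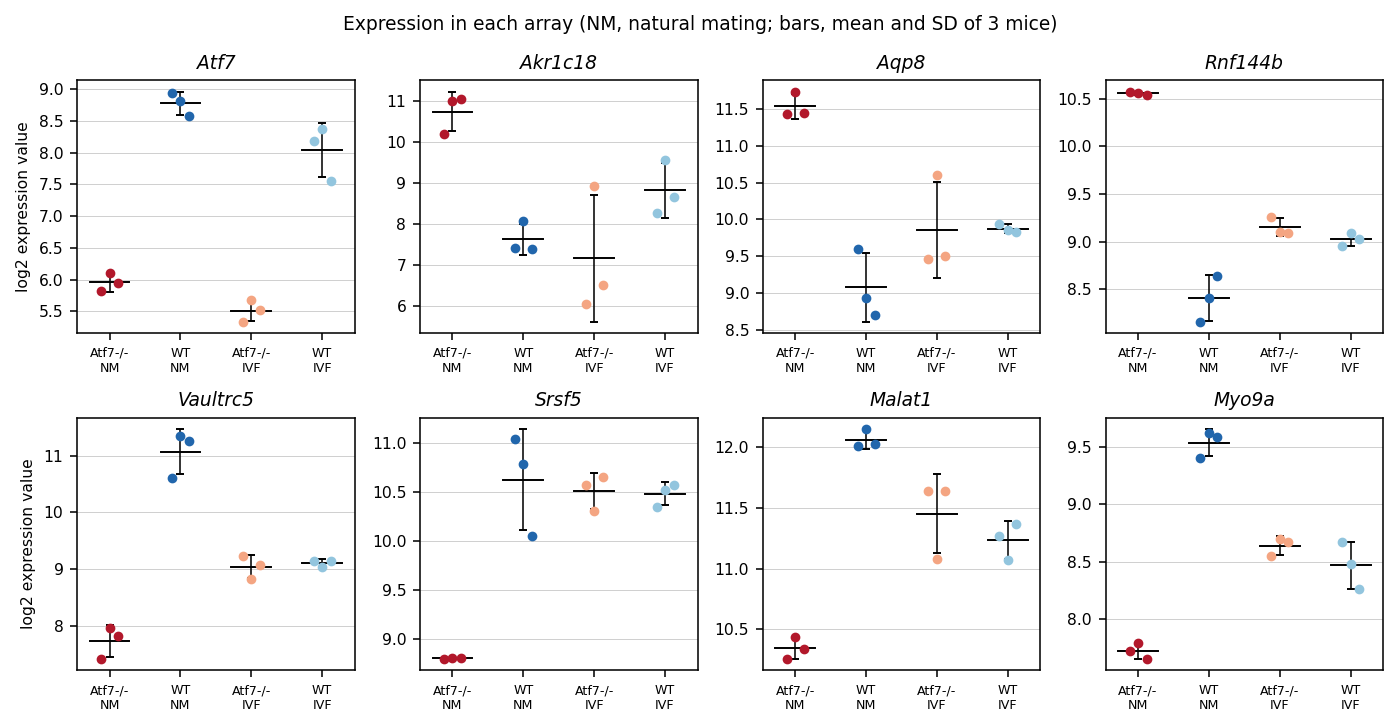
Log2 expression value of Atf7, 3 of the largest rises (Akr1c18, Aqp8 and Rnf144b) and 4 of the largest falls (Vaultrc5, Srsf5, Malat1 and Myo9a) in each array, with bars for the mean and SD of 3 mice in each group (NM, natural mating). The genes were taken from called probe sets whose Atf7-/- and WT natural mating arrays do not overlap. Of the 8 genes shown, Atf7 alone was also called between the IVF genotypes.

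Cholesterol is built from acetyl-CoA through the mevalonate pathway to squalene and then through a chain of oxidation, demethylation and reduction steps. SREBP2, encoded by Srebf2, is the transcription factor that raises these enzymes when membrane sterols are low, after SCAP has escorted it from the endoplasmic reticulum. Of 10 measured mevalonate genes, 5 were called higher and 0 lower, and of 11 genes from squalene to cholesterol, 8 were called higher and 0 lower. The median change was 0.85 in the first list and 1.26 in the second, against a median of 0.0042 over all genes. After IVF the medians of the same lists were -0.47 and -0.74, with no gene of either called.

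Srebf2 gave 9.17, 9.21 and 9.15 in Atf7-/- livers, against 8.36, 8.43 and 8.48 in WT livers. The replicates were tight in both groups, and Srebf2 rose by 0.75 (SE 0.089, adjusted p = 0.000399). Scap gave 10.57, 10.74 and 10.41 in Atf7-/- livers and 9.96, 9.95 and 9.38 in WT livers, a rise of 0.81 (adjusted p = 0.00873). Srebf1, which encodes the fatty acid branch of the family, differed by -0.60 (adjusted p = 0.281), and Insig1, the retention factor of SCAP, by 0.12 (adjusted p = 0.867). These 2 were not called, and their groups overlapped.

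Among mevalonate enzymes, Hmgcs1, the synthase that makes HMG-CoA, gave 10.72, 11.33 and 10.97 in Atf7-/- livers and 9.83, 9.75 and 10.30 in WT livers (1.04, adjusted p = 0.0227). Mevalonate kinase (Mvk) rose by 0.94 with 8.49, 9.0 and 8.66 against 7.54, 7.81 and 7.99 (adjusted p = 0.00155). Idi1, the isomerase of the isoprenoid unit, gave 10.13, 10.68 and 10.82 in Atf7-/- livers, against 8.17, 8.72 and 9.41 in WT livers. The third WT array was the highest of its group in all 3 of these genes, and the groups still did not overlap. Idi1 rose by 1.78 (SE 0.39, adjusted p = 0.0123), while a second Idi1 probe set at 0.34 was not called. Pmvk (0.95, adjusted p = 0.0454) and farnesyl diphosphate synthase, Fdps (1.40, adjusted p = 0.0182), were the other 2 calls, and Mvd at 0.76 (adjusted p = 0.188) was not called.

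In the later steps, Tm7sf2, a sterol C14 reductase, gave 10.18, 10.59 and 10.58 in Atf7-/- livers and 9.35, 8.89 and 9.05 in WT livers, a rise of 1.35 (SE 0.18, adjusted p = 0.000711). Hsd17b7, the 3-ketosteroid reductase, gave 9.82, 10.58 and 10.23 against 8.67, 8.78 and 8.94 (1.41, SE 0.22, adjusted p = 0.00171). Both were clear of overlap by a wide margin. Nsdhl, its partner in C4 demethylation, rose by 1.76 (adjusted p = 0.0122), Cyp51 by 1.48 (adjusted p = 0.0303), Msmo1 by 1.26 (adjusted p = 0.0177), Lss, the lanosterol synthase, by 1.19 (adjusted p = 0.0164), Dhcr7 by 0.85 (adjusted p = 0.0495) and Fdft1, the squalene synthase, by 0.79 (adjusted p = 0.00734). A second Fdft1 probe set was called as well, at 1.73. Squalene epoxidase (Sqle) gave 9.37, 10.44 and 9.86 in Atf7-/- livers and 7.38, 7.68 and 9.44 in WT livers. The third WT liver reached the knockout range, and the difference of 1.72 was not called (SE 0.65, adjusted p = 0.114). Ebp (0.26) and Sc5d (0.10), late reshaping enzymes, were also not called.

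The count of sterol calls depended on single arrays. Mevalonate calls numbered 6 without the third WT array but 1 without the third Atf7-/- array, and 2 without the second Atf7-/- array, the first WT array or the second WT array. Calls from squalene to cholesterol numbered 9 without the third WT array, 4 without the second Atf7-/- array, the first WT array or the second WT array, and 5 without the third Atf7-/- array. Hmgcs1, Pmvk, Fdps, Lss, Cyp51 and Dhcr7 each lost the call in at least 4 of the 6 fits with 1 array left out, with adjusted p of up to 0.0872, 0.155, 0.0694, 0.0666, 0.105 and 0.167 in this order, and Msmo1 in 3 (up to 0.0681). Srebf2, Scap, Mvk, Tm7sf2, Hsd17b7, Nsdhl and Fdft1 kept theirs in all 6.

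**Figure D2:**
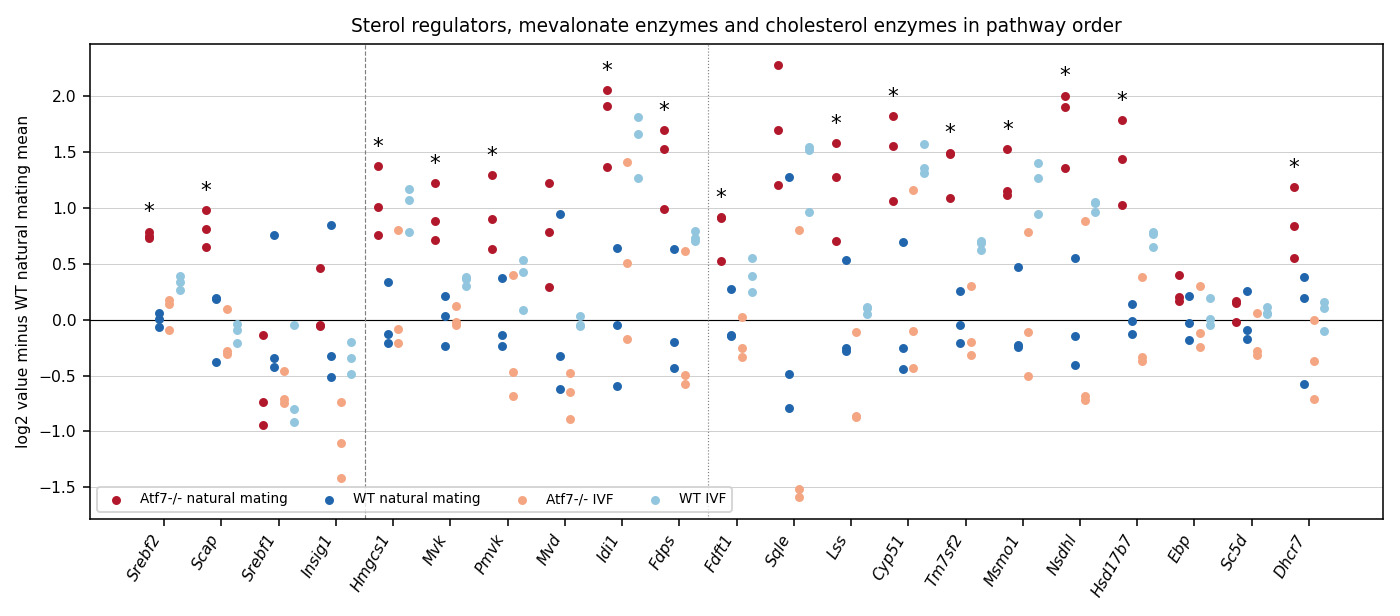
Log2 value of each array minus the mean of the WT natural mating arrays, for sterol regulators (left of the dashed line), mevalonate enzymes (between the lines) and enzymes from squalene to cholesterol (right of the dotted line). Stars mark genes called higher in Atf7-/- natural mating livers, and in Sqle the third WT array lies among the knockout values.

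SREBP acts through the sterol regulatory element, and the promoter of Hmgcs1 shows it in its short form TCACCCCAC. This motif was searched on both strands in RefSeq windows of 250 bases before to 50 bases after the start of each gene (build GRCm38.p6), and 99 of 15562 genes with a window held it (0.636%). It was found in 1 of 18 mevalonate and cholesterol genes with a window (5.56%), Hmgcs1. The stretch below, chr13:119690174-119690262 on the plus strand, has the motif in capitals with its first base 137 bases before the start.
Hmgcs1: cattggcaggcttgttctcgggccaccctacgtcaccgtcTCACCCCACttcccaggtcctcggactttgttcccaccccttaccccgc

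Fatty acid genes moved less evenly. Among 24 synthesis and desaturation genes, 4 were called higher (16.7%, against 4.31% of all genes) and 0 lower, with a median of 0.55. Lpin1, the phosphatidate phosphatase lipin 1, gave 10.95, 11.48 and 11.53 in Atf7-/- livers and 9.89, 9.58 and 10.42 in WT livers, a rise of 1.36 (SE 0.22, adjusted p = 0.00251). Elovl5, an elongase of polyunsaturated fatty acids, gave 12.98, 13.08 and 13.07 against 12.35, 12.38 and 12.06 (0.78, adjusted p = 0.00714). Elovl1 rose by 0.75, and the desaturase gene Scd2 by 1.47, where the second knockout liver at 9.69 stood above the others at 7.93 and 8.21. Fatty acid synthase (Fasn) was at 12.02, 12.80 and 12.39 in Atf7-/- livers and at 10.33, 10.50 and 12.38 in WT livers. The third WT array again reached the knockout range, and the difference of 1.33 was not called (SE 0.66, adjusted p = 0.235). Acaca, Scd1 and Elovl6 differed by 0.50, 0.29 and 0.73 and were not called either. Without the third WT array, 7 of the 24 were called higher, and without the first WT array 3.

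PPARalpha, the fatty acid sensor of hepatocytes, drives genes of fatty acid oxidation. Of 46 such genes measured, 4 were called higher (8.7%) and 3 lower (6.52%), with a median of 0.05. Among all genes 4.31% were called higher and 1.9% lower. Acot2 and Acot4, neighbouring acyl-CoA thioesterase genes, moved in opposite directions. Acot2 gave 10.49, 9.62 and 10.23 in Atf7-/- livers and 8.92, 8.71 and 7.17 in WT livers (1.85, SE 0.38, adjusted p = 0.00872). Acot4 gave 9.15, 9.0 and 8.98 against 10.64, 10.05 and 9.55 (-1.04, adjusted p = 0.00974). Neither pair of groups overlapped. Acaa1b, a peroxisomal thiolase, fell by 1.10, and Acadl, a mitochondrial acyl-CoA dehydrogenase, fell by 0.61, while the coactivator gene Ppargc1a rose by 0.76. Ppara itself differed by 0.04 and Cpt1a, the gate of mitochondrial oxidation, by 0.11, both not called. Without the third WT array the list had 2 calls higher and 7 lower, without any one Atf7-/- array 2 higher, and without the first WT array 6 higher and 2 lower.

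Bile acids are made from cholesterol, and their enzymes split in direction. Of 27 genes, 3 were called higher (11.1%) and 4 lower (14.8%), against 4.31% and 1.9% of all genes. Hsd3b7, the dehydrogenase that acts after the first hydroxylation, gave 11.51, 11.14 and 11.40 in Atf7-/- livers and 9.43, 9.38 and 9.97 in WT livers. It rose by 1.76 (SE 0.16, adjusted p = 0.000103), with every knockout liver more than 1 log2 unit above every WT liver. Cyp8b1, the enzyme that directs synthesis to cholic acid, rose by 0.93 (adjusted p = 0.0194) and Amacr, a racemase of side-chain shortening, by 0.65. Akr1d1, the delta4-3-ketosteroid 5-beta-reductase of the pathway, gave 9.90, 10.13 and 10.12 against 10.83, 10.69 and 10.93 (-0.77, adjusted p = 0.00103). Baat, which conjugates bile acids to amino acids, fell by 0.70, the bile acid receptor gene Nr1h4 by 0.61 and the uptake carrier gene Slco1a4 by 0.81. Cyp7a1, the rate-limiting enzyme, gave 10.40, 9.50 and 10.72 in Atf7-/- livers and 11.28, 11.76 and 11.72 in WT livers. Those groups did not overlap, but the difference was not called (-1.38, SE 0.57, adjusted p = 0.148). The calls of Cyp8b1, Nr1h4 and Slco1a4 ended in 3, 4 and 5 of the 6 fits with 1 array left out, and without the third WT array the list had 1 call higher and 3 lower. It had 2 lower calls without the first Atf7-/- array, the second Atf7-/- array or the first WT array.

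Steroid and drug enzymes also split. Of 25 genes of steroid hormone metabolism, 4 were called higher (16%) and 2 lower (8%), against 4.31% and 1.9% of all genes. Besides Akr1c18, the rises were those of Srd5a3, a polyprenol reductase (1.12), Hsd17b2, which oxidises estradiol and testosterone (0.91), and Hsd11b1, which regenerates active glucocorticoid (0.68). Akr1c19, a relative of Akr1c18, gave 8.46, 8.04 and 8.27 in Atf7-/- livers and 9.85, 9.53 and 9.93 in WT livers, a difference of -1.51 (SE 0.21, adjusted p = 0.000868). Hsd3b2 fell by 1.18 (adjusted p = 0.000276). So 2 members of the Akr1c family lay at opposite ends of the list, each without overlap between the genotypes.

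Of 21 glutathione transferase genes, 6 were called higher (28.6%, against 4.31% of all genes) and 0 lower. Gstm6 gave 10.19, 10.03 and 10.23 in Atf7-/- livers and 8.93, 8.97 and 8.93 in WT livers, a rise of 1.21 (SE 0.16, adjusted p = 0.000808). Gstt3 gave 9.24, 9.41 and 9.62 against 8.18, 8.03 and 8.49 (1.19, SE 0.16, adjusted p = 0.00078). Both genes had knockout values well clear of the WT range. The others were Gstm4 (0.99), Gstt1 (0.91), Gstm7 (0.88) and Gstm2 (0.72), and the Mu-class genes are close in sequence, so that probes may read more than one of them. Gpx4, a glutathione peroxidase that reduces lipid hydroperoxides, fell by 0.87 on one probe set and by 0.78 on the other. Of 48 genes of cytochrome P450 families 1 to 4, 3 were called higher (6.25%) and 2 lower (4.17%), against 4.31% and 1.9% of all genes. They were Cyp2c55, Cyp2c29 (0.72) and Cyp2c70 (0.61) on the one side and Cyp3a25 (-0.81) and Cyp3a13 (-0.76) on the other. Nr1i3, the xenobiotic receptor CAR, fell by 0.95 and Cebpa by 0.78, while the hepatocyte regulator Hnf4a gave 11.74, 11.69 and 11.78 in Atf7-/- livers against 11.28, 11.14 and 10.76 in WT livers and rose by 0.68. The P450 list had 6 higher calls without the third WT array and 1 without the third Atf7-/- array or the second WT array, and its lower calls numbered 1 without the first or second array of either genotype. Without the third WT array Hnf4a lost its call.

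Pathways that feed nucleotides had calls on both sides. Nt5e, the ecto-5'-nucleotidase that makes adenosine from AMP outside cells, gave 9.31, 9.35 and 9.68 in Atf7-/- livers and 8.24, 8.17 and 7.73 in WT livers, a rise of 1.40 (SE 0.16, adjusted p = 0.000349). In IVF livers Nt5e averaged 9.63 in Atf7-/- and 9.72 in WT, close to the knockout level of natural mating. Enpp3, an ectonucleotide pyrophosphatase, rose by 1.20, and the purine-degrading enzymes Gda and Xdh fell by 0.78 and 0.68. So of 31 salvage and breakdown genes 2 were called higher (6.45%) and 2 lower (6.45%), against 4.31% and 1.9% of all genes. With 1 array left out, 0 to 2 of the 31 were called lower, and without the third WT array neither Gda nor Xdh was. Of 12 genes of de novo purine synthesis, Paics was called higher (0.79) and Pfas lower (-0.61). The call of Pfas ended without the third Atf7-/- array, the first WT array or the second WT array, and 2 genes were called higher without the second or the third WT array. Uck2, a uridine-cytidine kinase, gave 8.79, 8.79 and 8.73 in Atf7-/- livers and 7.84, 7.69 and 7.24 in WT livers (1.18, adjusted p = 0.000753), but a second Uck2 probe set at -0.41 was not called. Upp2, a liver uridine phosphorylase, gave 10.31, 10.43 and 10.39 against 11.72, 11.72 and 11.81 and fell by 1.37 (SE 0.3, adjusted p = 0.0107). Its replicates were close in both groups. Of 23 pyrimidine genes, 3 were called higher (13%) and 1 lower (4.35%), against 4.31% and 1.9% of all genes. Leaving out any array but the first Atf7-/- one gave 2 lower calls.

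In sugar metabolism, Pgd, the 6-phosphogluconate dehydrogenase of the pentose phosphate pathway, gave 9.99, 10.23 and 10.30 in Atf7-/- livers and 8.23, 8.53 and 8.74 in WT livers. It rose by 1.67 (SE 0.22, adjusted p = 0.000803), 1 of 2 higher calls among 14 genes. Fbp1, a gluconeogenic phosphatase, gave 13.22, 13.19 and 13.30 against 12.57, 12.54 and 12.53 (0.69, SE 0.085, adjusted p = 0.000501). That was a small change with little spread. Pklr, the liver pyruvate kinase, rose by 1.28 (adjusted p = 0.0255), though its call was lost in 5 of the 6 fits with 1 array left out. Of 22 genes of gluconeogenesis and glycogen, 4 were called higher and 0 lower, with 2 higher without any one Atf7-/- array and 3 without any one WT array. On the nitrogen side, Gpt, the alanine aminotransferase, gave 8.90, 9.11 and 9.01 in Atf7-/- livers and 10.26, 10.32 and 10.23 in WT livers, a fall of 1.26 (SE 0.2, adjusted p = 0.00215). Arg1, the arginase of the urea cycle, gave 11.30, 11.47 and 11.41 against 12.04, 11.98 and 12.17 (-0.67, SE 0.085, adjusted p = 0.000591). Neither gene overlapped between genotypes. Of 8 urea cycle genes, 2 were called lower, but 1 in each of the 6 fits with 1 array left out. Of 23 genes of alanine, aspartate and glutamate metabolism, 4 were called lower.

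Sugar chains and lipid anchors are attached to secreted and membrane proteins in the endoplasmic reticulum, and genes of both processes were called almost only higher. Of 45 genes of N-glycan synthesis, 10 were called higher and 0 lower, with a median of 0.18. Alg3, the mannosyltransferase that starts the lumenal part of the lipid-linked glycan, gave 10.24, 10.04 and 10.23 in Atf7-/- livers and 8.32, 8.58 and 8.60 in WT livers. The distance between the groups was several times their spread, and Alg3 rose by 1.67 (SE 0.15, adjusted p = 0.000109). Dpagt1, which makes the first step of that glycan, gave 9.28, 9.21 and 9.30 against 8.51, 8.36 and 8.43 (0.83, adjusted p = 0.000527). Dad1 and Ost4, subunits of oligosaccharyltransferase, rose by 0.83 and 0.76, Alg12 by 0.83, Alg14 by 0.69 and the sialyltransferase gene St6gal1 by 0.87. Over the removals of 1 array the list had 8 to 11 higher calls, and 1 lower call without the third WT array.

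Of 28 genes of glycosylphosphatidylinositol (GPI) anchor synthesis, 8 were called higher and 1 lower, with a median of 0.25. Pigt, a subunit of the GPI transamidase, gave 10.24, 10.06 and 10.06 in Atf7-/- livers and 9.20, 9.24 and 9.15 in WT livers (0.93, SE 0.091, adjusted p = 0.000147). Gpaa1, another subunit of that enzyme, gave 9.15, 9.12 and 9.15 against 8.08, 8.29 and 8.26 (0.93, SE 0.11, adjusted p = 0.000416). Pigu and Pigs, also subunits of the transamidase, rose by 0.79 and 0.72. Pigf (0.93), Pigl (0.87), Pigb (0.73) and Pigq (0.71) act in building the anchor. The lower call was Dpm1, which makes the mannose donor (-0.66). The count of higher calls was 8 in each of the 6 fits with 1 array left out, and 0 were called lower without the first WT array.

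In the IVF groups the N-glycan and GPI lists had medians of -0.09 and -0.04 between genotypes and 0 calls. Alg3 averaged 8.57 in Atf7-/- and 8.74 in WT livers of IVF mice, and Pigt 9.16 and 9.10, so that in these 2 genes both groups of IVF mice were near the WT level of natural mating. The N-glycan list as a whole had a mean level of 8.56 to 8.69 in IVF arrays, against 8.67 to 8.71 in Atf7-/- and 8.41 to 8.46 in WT arrays of natural mating, nearer to the knockout level. The GPI list was at 7.59 to 7.72 in IVF arrays, between 7.84 to 7.92 in Atf7-/- and 7.53 to 7.62 in WT arrays of natural mating, with some overlap with the WT arrays.

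Genes of the respiratory chain split within complexes. Of 77 nuclear-encoded subunits of oxidative phosphorylation, 7 were called higher and 16 lower, with a median of -0.15. Ndufs8, an iron-sulfur subunit of complex I, gave 11.32, 11.48 and 11.58 in Atf7-/- livers and 10.01, 10.09 and 10.62 in WT livers (1.22, SE 0.16, adjusted p = 0.000611). Ndufs7, its neighbour in the same arm of the complex, rose by 0.99, and Ndufb9 and Atp5d by 0.90 and 0.86. Among small accessory subunits, Ndufa4 gave 10.15, 10.34 and 10.12 against 11, 11.18 and 11.48, a fall of 1.02 (SE 0.12, adjusted p = 0.000381). Uqcr11 of complex III fell by 1.10, Atp5k of the ATP synthase by 1.25 and Ndufb2 by 0.98. Atp5l had the largest fall of the list (-1.75 on its brightest probe set), and its probe sets range from called to -0.02. Of 24 citrate cycle genes, 2 were called higher (8.33%) and 4 lower (16.7%), against 4.31% and 1.9% of all genes. Their median was -0.03, with changes from -0.86 to 0.89, the highest being Cs, the citrate synthase. With 1 array left out, 1 or 2 of them were called higher and 2 to 4 lower, both fewest without the first Atf7-/- array or the third WT array.

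Of 57 measured cytosolic ribosomal protein genes, 0 were called higher and 16 lower, with a median of -0.30. Rpl24 gave 10.79, 10.81 and 10.70 in Atf7-/- livers and 12.17, 12.18 and 12.42 in WT livers, a difference of -1.49 (SE 0.1, adjusted p = 2.03e-05). Rps9 gave 9.33, 9.42 and 9.27 against 10.59, 10.63 and 10.60 (-1.27, SE 0.083, adjusted p = 1.6e-05). Both were among the tightest changes of the comparison, with more than 1 log2 unit of free space between the groups. Further falls on the brightest probe set of each gene were those of Rpl5 (-1.31), Rpl23a (-1.21), Rps25 (-1.20) and Rpsa (-1.18). These genes have many processed copies, other probe sets of Rpl24, Rps9, Rpl5 and Rpl23a were not called, and their values are uncertain to that extent. Over the removals of 1 array the list had 13 to 18 lower calls, and its median in the IVF comparison was 0.00.

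Of 62 spliceosome and hnRNP genes, 2 were called higher and 10 lower (16.1%), with a median of -0.10 and 50 not called. Srsf5 gave 8.80, 8.81 and 8.81 in Atf7-/- livers and 11.04, 10.78 and 10.05 in WT livers. The knockout values were nearly identical while the WT values spread over about 1 log2 unit, and the change was -1.82 (SE 0.21, adjusted p = 0.000329). Further log2 changes were -1.02 in Hnrnpc, -0.93 in the RNA helicase gene Ddx5, -0.85 in Hnrnph1, -0.84 in U2af1 and -0.82 in Snrnp70, a protein of the U1 particle. Lsm8 and Lsm4, parts of the ring that holds U6 RNA, rose by 1.05 and 0.88. Proteasome genes had 3 calls higher (6.38%) and 5 lower (10.6%) of 47, against 4.31% and 1.9% of all genes. Their lower calls numbered 9 without the first WT array and 3 without the third Atf7-/- array.

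Small nucleolar RNAs (snoRNAs) guide the chemical modification and cutting of ribosomal RNA and most are cut out of introns of host genes. They had the highest share of calls among the lists in the main fit. Without the third WT array 33 of 47 snoRNAs were called lower and 9 of 11 genes from squalene to cholesterol higher, which turns that order. Of 47 measured snoRNAs, 35 were called lower (74.5%) and 0 higher, with a median of -1.27 and a range from -4.12 to 0.14. Snord118, the U8 RNA needed for large-subunit ribosomal RNA, gave 7.32, 8.38 and 8.11 in Atf7-/- livers, against 11.14, 12.48 and 12.54 in WT livers. Snora73a, a U17 RNA, gave 7.74, 8.67 and 7.96 against 11.80, 12.42 and 11.61. In both RNAs the lowest WT liver was more than 2 log2 units above the highest knockout liver, with log2 fold changes of -4.12 for Snord118 (SE 0.35, adjusted p = 6.53e-05) and, for Snora73a, -3.82 (SE 0.24, adjusted p = 1.36e-05). The changes were -3.83 in its close copy Snora73b, -3.48 in Snora44, -3.26 in Snora31 and -3.24 in Snora3. In 41 of the 47 the genotypes did not overlap, against 31.9% of all probe sets. Signal from a snoRNA and from the unspliced intron that holds it cannot be told apart on this array. Whether the groups differed in RNA quality or in processing batch was not tested, for the snoRNAs or for any other list.

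The mean over the 47 snoRNAs was 7.10, 7.31 and 7.04 in Atf7-/- livers of natural mating and 8.48, 8.74 and 8.71 in WT livers of natural mating. In IVF mice it lay between these, at 7.96, 8.0 and 7.97 in Atf7-/- livers and 7.97, 7.99 and 7.97 in WT livers. The genotypes were the same to within a few hundredths after IVF, where the median change was 0.02. Over the removals of 1 array, 31 to 36 snoRNAs were called lower.

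Other noncoding RNAs followed. Of 11 structural and nuclear RNAs, 7 were called lower and 0 higher, with a median of -0.76, and the count was 7 in each fit with 1 array left out. Malat1, a long RNA of nuclear speckles, gave 10.26, 10.44 and 10.34 in Atf7-/- livers and 12.01, 12.15 and 12.03 in WT livers (-1.72, SE 0.15, adjusted p = 7.14e-05). Rmrp, the RNA of the RNase MRP enzyme, gave 10.20, 9.97 and 10.13 against 11.56, 12.13 and 11.68 (-1.69, SE 0.16, adjusted p = 0.000109). The groups were again wide apart in both. Gas5, a snoRNA host gene, fell by 1.31 (adjusted p = 7.38e-05), with 2 of its 4 probe sets not called. The changes of Rny1, of Rpph1, the RNase P RNA, and of Snhg5 were -1.20, -0.76 and -0.73. The 7SK RNA (Rn7sk) gave 13.83, 13.87 and 13.84 against 13.99, 13.99 and 13.98, a difference of -0.14 that was not called (adjusted p = 0.214). Rny3 differed by -0.41 with an adjusted p of 0.0154 and was below the fold threshold.

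**Figure D3:**
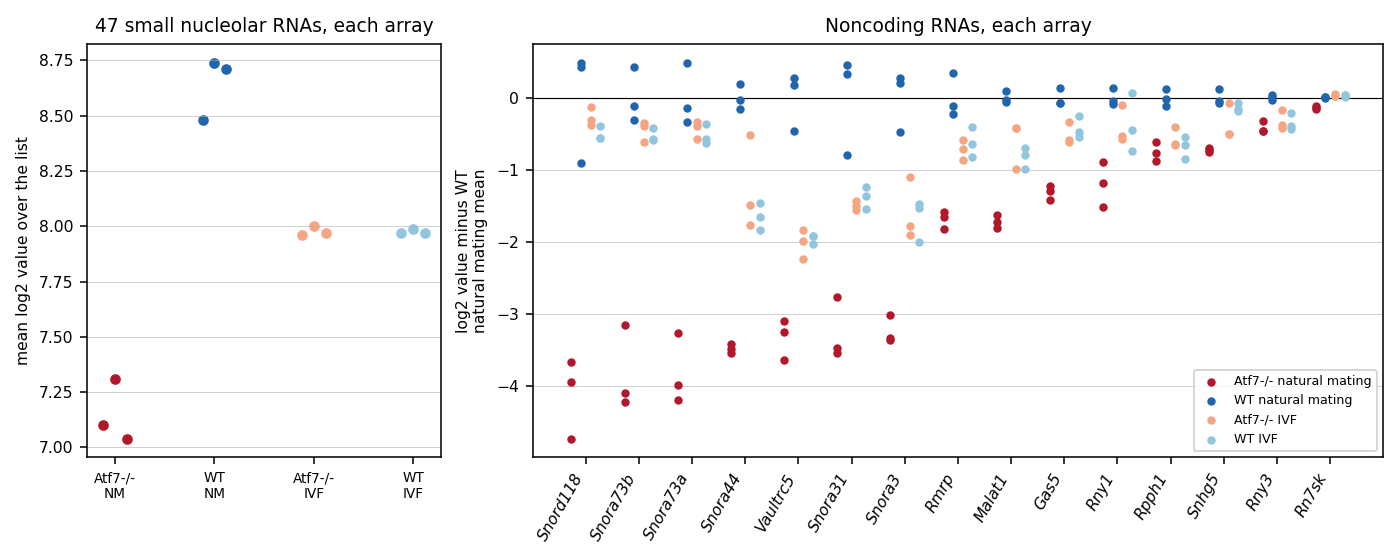
Left, mean log2 value over 47 small nucleolar RNAs in each array of the 4 groups (NM, natural mating). Right, log2 value of each array minus the WT natural mating mean for snoRNAs and other noncoding RNAs, where the Atf7-/- natural mating arrays of Snord118 lie farthest below 0 and those of Rn7sk close to it.

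Imprinted genes are expressed from 1 parental allele, and some of them are known for silencing in liver after birth. Of 35 measured, 5 were called higher (14.3%, against 4.31% of all genes) and 0 lower, with a median of 0.04. Peg10, a paternally expressed retrotransposon-derived gene, gave 7.91, 7.55 and 7.49 in Atf7-/- livers and 6.16, 6.46 and 5.84 in WT livers (1.50, SE 0.16, adjusted p = 0.000276). Mest, also paternally expressed, gave 8.11, 8.18 and 8.85 against 6.83, 7.06 and 6.88 (1.46, SE 0.24, adjusted p = 0.00259). Phlda2, maternally expressed, gave 7.48, 7.64 and 7.06 against 6.27, 6.26 and 6.21 (1.15, adjusted p = 0.00193). None of the 3 overlapped between the genotypes. Sgce, the neighbour of Peg10, rose by 0.81 and Slc22a18 by 0.68, while Igf2 (0.08) and Cdkn1c (0.04) were not called. The call of Sgce was lost in 5 of the 6 fits with 1 array left out.

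Cell cycle genes lay mostly above 0. Of 30 genes of mitosis, 29 were above 0 with a median of 0.76, and 3 were called higher (10%, against 4.31% of all genes). The mean level of the 30 was 6.98, 6.69 and 7.68 in Atf7-/- livers and 6.49, 6.69 and 6.08 in WT livers. The second arrays of the genotypes were thus level, and the third arrays lay farthest apart. Ube2c, a ubiquitin-conjugating enzyme of mitotic exit, gave 7.60, 7.48 and 8.49 in Atf7-/- livers and 7.05, 6.92 and 6.77 in WT livers (0.94, adjusted p = 0.0324). The third knockout array was the highest there, as in Aurka (0.72, adjusted p = 0.0462) and Cenpa (0.86, adjusted p = 0.0336), and without it 0 of the 30 were called. Leaving out any single WT array also ended all 3 calls, and without the first Atf7-/- array 1 was called. Of 37 genes of DNA replication, Rfc4 (1.34), Pold2 (0.69) and Cdt1 (0.63) were called higher (8.11%). That count was 1 without the first Atf7-/- array or the third WT array and 5 without the second WT array.

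The tubulins form microtubules, and of 43 tubulin and gap junction genes 8 were called higher (18.6%, against 4.31% of all genes) and 0 lower. Tubb6 gave 8.29, 8.30 and 8.79 in Atf7-/- livers and 7.27, 7.38 and 7.06 in WT livers (1.22, SE 0.2, adjusted p = 0.00224). Tubb5 rose by 0.97, Tubb2a by 0.93, the gamma-tubulin gene Tubg1 by 0.84 and the growth factor gene Pdgfa by 0.99. Without the third WT array 11 were called higher. The count was 6 without the second Atf7-/- array, the third Atf7-/- array or the first WT array, and 7 without the second WT array. Leaving out the first WT array also gave 1 lower call.

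Of 64 extracellular matrix genes, 7 were called higher (10.9%, against 4.31% of all genes) and 0 lower. Nid1, a basement membrane protein, gave 9.42, 9.67 and 9.79 in Atf7-/- livers and 8.58, 8.82 and 8.09 in WT livers (1.13, SE 0.19, adjusted p = 0.00263). Thbs1 rose by 0.97, the gelatinase gene Mmp2 by 0.80, and Lox and Sparc by 0.61 each. Stellate cell and fibroblast markers (cells that lay down matrix in liver) had 5 of 18 called higher (27.8%, against 4.31% of all genes) and a median of 0.36. The marker list itself holds matrix genes, among them Dcn, Lum and collagen genes, so it is no separate evidence beside the matrix list. Acta2, smooth muscle actin, gave 8.06, 8.91 and 8.95 against 7.05, 7.15 and 7.55 (1.39, SE 0.24, adjusted p = 0.00369). Pdgfrb, the platelet-derived growth factor receptor of these cells, gave 8.0, 8.33 and 8.35 against 7.21, 7.34 and 7.46 and rose by 0.89 (adjusted p = 0.00115). The retinoid-storage marker Lrat at 0.40 and desmin, Des, at 0.36 were not called. The summed linear level of the 18 markers was 9950 to 10900 in Atf7-/- livers and 7020 to 9040 in WT livers, without overlap, and its part in the matrix calls was not tested. In bulk liver, fewer cells of a type and less RNA in each cell cannot be told apart. With 1 array left out, 3 to 10 matrix genes were called higher, fewest without the third WT array, 4 without the second Atf7-/- array, the third Atf7-/- array or the first WT array, and most without the second WT array. Stellate markers had 3 to 5 higher calls, fewest without the third array of either genotype.

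Markers of sinusoidal endothelial cells had 2 of 14 called higher (14.3%, against 4.31% of all genes), or 1 without the third array of either genotype. They were Clec4g (1.0, adjusted p = 0.00283) and Eng (0.62). The summed level of the 14 was 9420 to 11600 in Atf7-/- livers against 7350 to 8230 in WT livers. Kupffer cells, the resident macrophages, had 1 of 12 markers called higher (8.33%) and 3 lower (25%), against 4.31% and 1.9% of all genes. Their summed levels overlapped, 5940 to 6960 in Atf7-/- livers and 6440 to 9290 in WT livers. Clec4f, a lectin found on these cells alone in mouse liver, gave 9.73, 9.65 and 9.91 in Atf7-/- livers and 10.29, 10.73 and 11.12 in WT livers, a fall of 0.95 (adjusted p = 0.00466). Cd5l, a secreted macrophage protein, gave 9.57, 9.53 and 9.71 against 10.29, 10.78 and 10.87 (-1.04, SE 0.15, adjusted p = 0.00144). The knockout arrays of both genes were tight and below every WT array. Marco fell by 1.10 and Vsig4 rose by 0.62, so the list was not uniform. Without the third array of either genotype 0 of the 12 were called higher. Leaving out any array but the first WT one gave 2 lower calls.

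Immune genes had calls in both directions. C1qa, a complement subunit made by macrophages, fell by 0.92 and Mbl2, made by hepatocytes, by 0.73, while Cd59a and C5ar1 rose by 0.88 and 0.71. These were the 4 calls among 29 complement genes (6.9% in each direction, against 4.31% higher and 1.9% lower of all genes). Without the first WT array 5 complement genes were called lower. Of 44 interferon-stimulated genes, 2 were called lower, Irf1 (-1.11) and Oas2 (-0.63), and with 1 array left out the count was 0 without the second or the third Atf7-/- array, 8 without the first WT array and 1 otherwise, with up to 3 called higher (without the second Atf7-/- array). Irf1 had been called with an adjusted p of 0.0262, and a second probe set at -0.26 was not called. Of 18 genes of antigen presentation, 17 lay at or below 0 with a median of -0.41, and 1, the protease gene Ctss, was called lower (-0.76). Without the first WT array 4 of them were called lower, and without the third WT array or the first Atf7-/- array 0. Of 27 acute phase genes, 0 were called (1 higher without the first or the third WT array), and T and NK cell markers (12 genes) and B and plasma cell markers (9) had 0 calls.

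In the molecular clock, CLOCK and BMAL1 (encoded by Arntl) switch on the Period, Cryptochrome and REV-ERB genes, which then shut them off, and each transcript has its own peak hour. Clock gave 9.43, 9.10 and 9.45 in Atf7-/- livers and 8.37, 8.50 and 8.40 in WT livers, a rise of 0.90 (SE 0.11, adjusted p = 0.000405). Arntl gave 6.76, 6.45 and 7.17 against 6.01, 5.94 and 6.38 (0.68, SE 0.18, adjusted p = 0.0272). Every knockout value of both genes was above every WT value, by a small margin in Arntl. They were the 2 called of 5 measured genes in phase with Arntl. The other 3 lay below 0, down to -0.58, and the median of the 5 was -0.15. Of 16 genes in phase with Dbp and REV-ERB, 6 were called lower and 0 higher, with a median of -0.38. Per3 gave 8.05, 8.33 and 7.60 in Atf7-/- livers and 9.91, 9.84 and 9.53 in WT livers (-1.77, SE 0.22, adjusted p = 0.000578). Ciart, a repressor in the loop, gave 7.76, 7.72 and 6.61 against 8.99, 9.19 and 8.89 (-1.66, SE 0.38, adjusted p = 0.0141). Per2 gave 7.98, 8.25 and 7.96 against 8.78, 8.84 and 9.33 (-0.92, adjusted p = 0.00201). Usp2, a deubiquitinase, fell by 0.95, Tef by 0.88 and Nr1d2, REV-ERB beta, by 0.62.

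Not all clock genes ran that way. Nr1d1, REV-ERB alpha, gave 11.07, 10.75 and 10.49 in Atf7-/- livers and 10.58, 9.90 and 9.63 in WT livers, a difference of 0.73 that was not called (SE 0.28, adjusted p = 0.118). Dbp at -0.51, Per1 at 0.16 and Hlf at 0.29 were not called. Without the third Atf7-/- array or the second WT array, 3 of the 16 were called lower, and the calls of Arntl, Tef, Nr1d2 and Ciart were lost in 4, 3, 3 and 2 of the fits with 1 array left out. In IVF mice none of these genes was called between genotypes. Per3 was at a mean of 7.50 in Atf7-/- and 7.44 in WT livers of IVF mice and Arntl at 8.45 and 8.34, while Per1 was at 6.84 and 7.48 without overlap. Both IVF groups differed from both natural mating groups in Arntl by more than 1 log2 unit. As the hour of collection is not given in the sources used here, a difference in hour and a difference in genotype cannot be told apart.

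**Figure D4:**
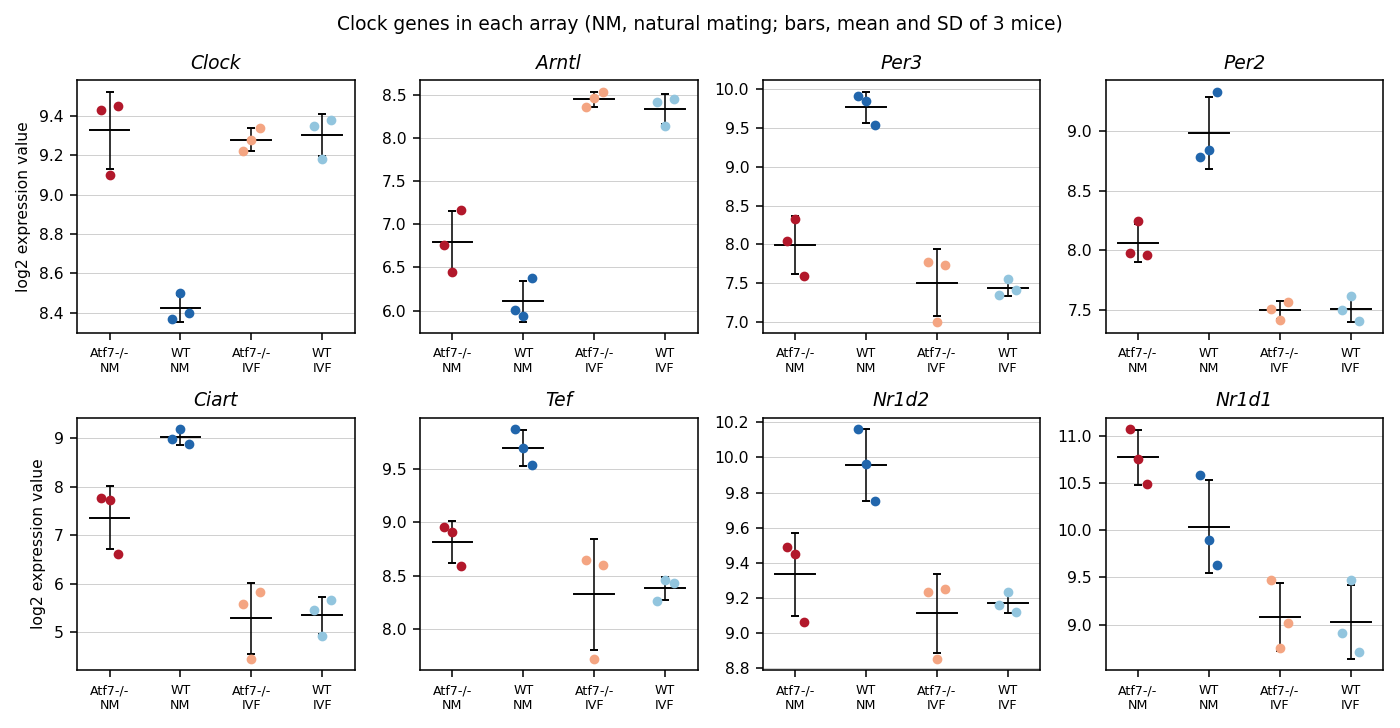
Log2 expression value of 8 clock genes in each array, with bars for the mean and SD of 3 mice in each group. Clock and Arntl are higher and Per3, Per2, Ciart, Tef and Nr1d2 lower in Atf7-/- than in WT livers of natural mating (NM), and the IVF groups overlap in all 8.

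The growth hormone pathway had 2 calls higher (10%) and 1 lower (5%) of 20, against 4.31% and 1.9% of all genes. Stat5b, its signal transducer, rose by 0.69, and Cish, a feedback inhibitor, by 1.0. Bcl6, a repressor that opposes STAT5 in male liver, gave 7.60, 7.51 and 6.53 in Atf7-/- livers and 8.73, 8.37 and 8.74 in WT livers (-1.40, SE 0.36, adjusted p = 0.0265). Igf1, the main product of the pathway, differed by 0.14 (adjusted p = 0.443). Of the 3 calls, that of Stat5b passed in all fits with 1 array left out, while Cish and Bcl6 failed in 5 and 3 of them. In the unfolded protein response, Sdf2l1 (1.47) and Derl3 (1.27), which act in folding and export of proteins in the endoplasmic reticulum, were the largest of 4 higher calls among 42 genes, with 2 lower. Those shares were 9.52% and 4.76%, against 4.31% and 1.9% of all genes.

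The relatives and partners of ATF7 were mostly level. Of 14 ATF and CREB genes other than Atf7, 1 was called higher (7.14%, against 4.31% of all genes) and 0 lower. It was Creb3l1, a factor cleaved at the Golgi, with 7.06, 7.47 and 7.42 in Atf7-/- livers and 6.46, 6.71 and 6.61 in WT livers (0.72, SE 0.12, adjusted p = 0.00236). Atf2, the closest paralog, gave 9.34, 9.19 and 9.17 against 9.15, 9.21 and 9.02, which overlap (0.10, adjusted p = 0.563). Without the third WT array 2 of the 14 were called higher. Atf1 at -0.48 had an adjusted p of 0.0124 and stayed under the fold threshold. Crem, Creb1, Atf3 and Atf4 differed by -0.02, 0.28, -0.22 and -0.27 and were not called. Of 15 JUN, FOS and MAF genes, Mafg (-0.76, adjusted p = 0.000731) and Junb (-0.61, adjusted p = 0.026) were called lower (13.3%, against 1.9% of all genes) and 0 higher. The median was 0.00, and its sign turns under other scalings of the arrays. The call of Junb ended without any one of 3 arrays.

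Of 23 genes of H3K9 methylation and HP1 proteins, 0 were called in either direction, also in each fit with 1 array left out. Among all genes only 4.31% were called higher and 1.9% lower, so few calls would be counted in a list of this size. In 12 of the 23 the genotypes did not overlap, against 31.9% of all probe sets, and 16 lay below 0, with a median of -0.09. Setdb1 gave 8.01, 7.75 and 7.72 in Atf7-/- livers and 8.18, 8.10 and 7.96 in WT livers (-0.25, SE 0.11, adjusted p = 0.159). Ehmt2 gave 8.29, 8.48 and 8.35 against 8.69, 8.63 and 8.49 (-0.23, SE 0.1, adjusted p = 0.163). Both lay a little lower in knockout livers, within the error of the test. Cbx5, which encodes HP1 alpha, was at 0.48 with an adjusted p of 0.0315, below the fold threshold. In the p38 pathway, the kinase gene Map2k6 gave 6.76, 6.86 and 6.74 against 7.62, 7.58 and 7.73 and fell by 0.86 (SE 0.095, adjusted p = 0.000296). Dusp1, a phosphatase that switches p38 off, gave 10.99, 11 and 9.79 in Atf7-/- livers and 9.72, 9.73 and 9.68 in WT livers. The third knockout liver was at the WT level, and the rise of 0.88 (adjusted p = 0.0431) was called in only 1 of the 6 fits with 1 array left out. Mapk14, p38 alpha itself, differed by -0.10.

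ATF7 binds TGACGTCA, the full cyclic AMP response element, which reads the same on both strands. In the RefSeq windows it was found in 424 of 15562 genes (2.72%), in 28 of 701 called higher (3.99%) and in 17 of 273 called lower (6.23%). The related AP-1 site TGACTCA, searched as TGACTCA and TGAGTCA on both strands, was in 839 of all these genes (5.39%), 28 of the higher calls (3.99%) and 8 of the lower calls (2.93%). The full element was in 0 of the 18 mevalonate and cholesterol genes. A match is a description of the letters and not a measured site, and binding of ATF7 was not measured in these samples. The stretches below show the element in capitals in genes of the lists above, 3 called lower (Gas5, Rps9 and Ndufb2) and 3 called higher (Znrd1, a subunit of RNA polymerase I that rose by 1.02, Tubb2a and Dusp1), each written in the direction of the gene. They lie at chr1:161035080-161035165 (Gas5, plus strand), chr7:3703944-3704031 (Rps9, plus strand), chr6:39592511-39592564 (Ndufb2, plus strand), chr17:36958553-36958640 (Znrd1, minus strand), chr13:34078020-34078107 (Tubb2a, minus strand) and chr17:26508568-26508655 (Dusp1, minus strand) of GRCm38.p6.
Gas5: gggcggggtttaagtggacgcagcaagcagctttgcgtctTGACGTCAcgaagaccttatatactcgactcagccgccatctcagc
Rps9: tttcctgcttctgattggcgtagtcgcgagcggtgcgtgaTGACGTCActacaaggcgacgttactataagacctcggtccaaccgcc
Ndufb2: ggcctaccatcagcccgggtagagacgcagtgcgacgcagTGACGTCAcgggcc
Znrd1: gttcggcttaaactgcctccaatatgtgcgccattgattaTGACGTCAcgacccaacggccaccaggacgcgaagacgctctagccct
Tubb2a: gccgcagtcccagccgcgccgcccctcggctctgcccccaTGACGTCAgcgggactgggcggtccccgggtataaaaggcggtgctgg
Dusp1: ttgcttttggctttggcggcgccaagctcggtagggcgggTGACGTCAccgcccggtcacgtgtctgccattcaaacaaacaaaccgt

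Set side by side, the lists ranged from snoRNAs, with 74.5% of members called lower, to squalene and cholesterol genes, with 72.7% called higher, against 1.9% and 4.31% of all genes. The lists of ATF and CREB genes and of H3K9 methylation had medians of -0.06 and -0.09. Ribosomal protein, respiratory chain and splicing genes had long tails to the lower side, and sterol, glycan and GPI anchor genes to the higher side.

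**Figure D5:**
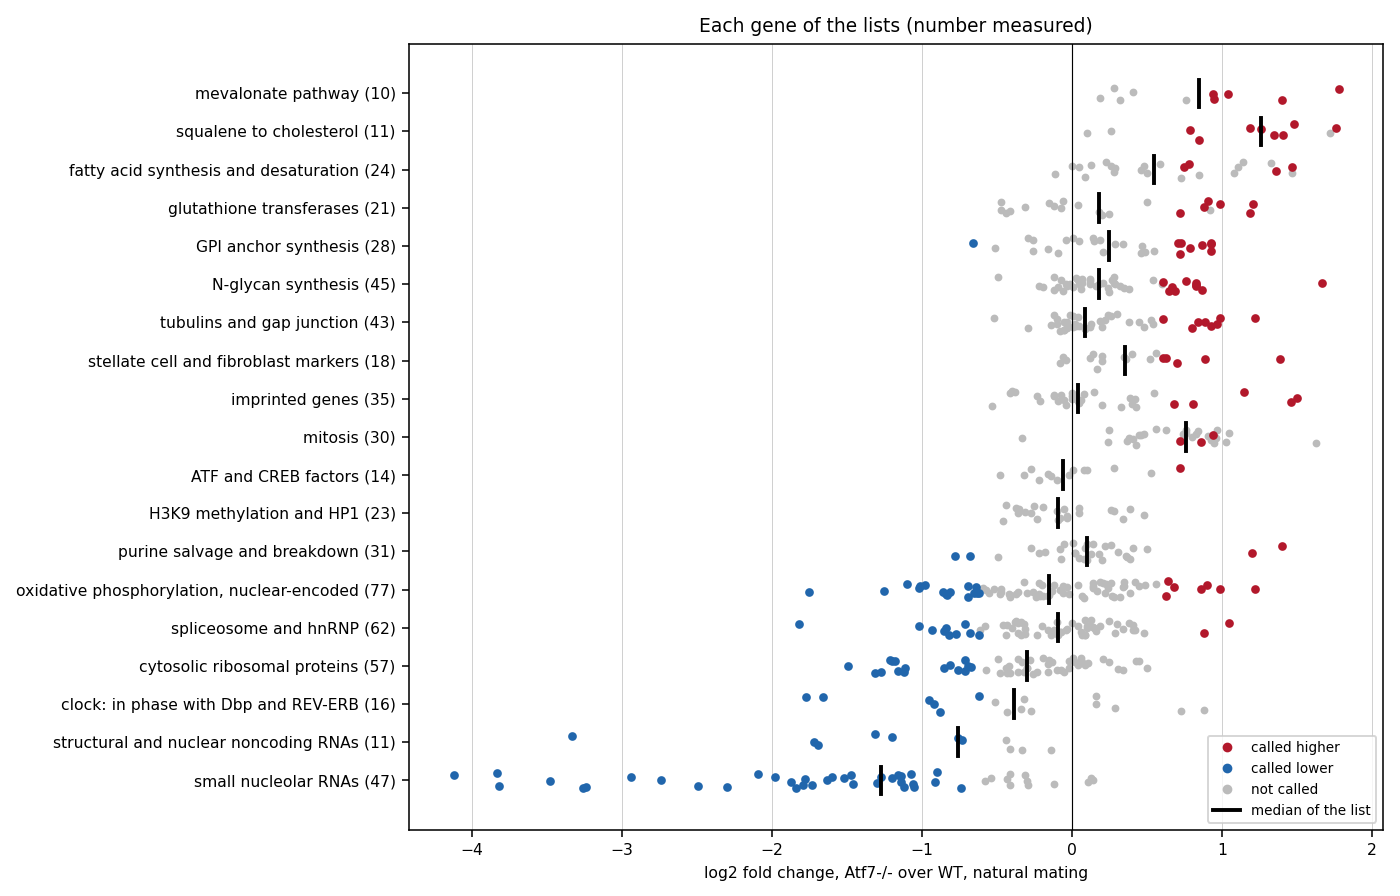
Log2 fold change of Atf7-/- over WT in natural mating for every measured gene of 19 lists, with the number measured in parentheses, black ticks for the median of each list, red points for genes called higher, blue for genes called lower and grey for the others. The medians run from 1.26 for squalene to cholesterol down to -1.27 for small nucleolar RNAs.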

How the data were processed

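Total RNA of 12 mouse livers (4 groups of 3) was hybridised by the authors to 1 Affymetrix Mouse Gene 1.0 ST array each. The deposited values are log2 expression values that the authors made with robust multiarray averaging (RMA, affy), which corrects background, quantile normalizes and summarises probes, and quantile normalization assumes like distributions in all arrays. The submitters' processing notes also name limma. The sources used here give no versions of these tools. Groups came from the sample titles. A linear model of 4 group means was fitted over all 12 arrays with limma 3.58.1 in R 4.3.3 (empirical Bayes), and Benjamini-Hochberg adjustment ran over all 34760 probe sets. Calls needed an adjusted p of 0.05 or less and a log2 fold change of at least 0.6 in size. The genotype contrasts of natural mating and IVF and their difference (interaction) were tested. All 3 share one estimate of the spread. The script was tested on simulated data.

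Symbols came from the platform annotation (21640 probe sets with 1 symbol, 1321 with several and 11799 with none), and 21553 matched the RefSeq table. Per gene, the probe set of highest mean over all arrays was used. Promoter windows were RefSeq sequences of GRCm38.p6 from 250 bases before to 50 after the start. Positions of probes were not used here, and H19 and Npas2 were not analysed here.

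Named genes are Atf7, the 15 largest rises and falls with non-overlapping groups (predicted genes, receptors of smell and taste, microRNAs and snoRNAs left out by symbol, so that Rnu3a, the U3 snoRNA, stayed), up to 6 called members of a list in each direction, members that are regulators or rate-limiting also where not called, and Srebf2, Nt5e and Idi1. Ifi202b, and genes shown only for a site in their promoter, were chosen after their values were seen. Members and lists were chosen with earlier results of these data known. Alternatives covered the samples fitted, replicate block, trend, array weights, centring, quantile normalization, dim probe sets, thresholds, summaries per gene and leaving out each array. The number of arrays limits the precision. Tables were made with Python 3.11.15, numpy 2.4.6 and pandas 2.3.3, and plots with matplotlib 3.10.9.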

Additional observations from a re-analysis of the deposited data

Results flagged for a closer look

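The results below stand out because the effect of genotype differed with the way of conception, by the limma interaction test (IVF effect minus natural mating effect, adjusted p of at most 0.05 and a log2 difference of at least 0.6 in size). Of the genes named in the report, 145 met this, 90 with a difference below 0 and 55 above 0. A value below 0 means that the log2 fold change of Atf7-/- over WT was lower in IVF than in natural mating livers. The test uses the same natural mating arrays as the report, and 6.18% of all probe sets passed it. Among probe sets called in natural mating, 1655 passed it (63.5%), all with a difference of opposite sign to their natural mating change. Many of the named genes were chosen among those calls, so their differences are no separate evidence. For Fabp5, Atp5l and Rps12 the difference is on the brightest probe set, which is not the one used among the largest changes above.

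Sterol genes had some of the largest differences below 0. They were -1.01 for Srebf2, -1.88 for Hmgcs1, -1.27 for Mvk, -1.54 for Pmvk, -2.78 for Idi1 and -2.30 for Fdps. In the later steps they were -1.37 for Fdft1, -3.83 for Sqle, -1.90 for Lss, -2.68 for Cyp51, -2.09 for Tm7sf2, -2.41 for Msmo1, -2.95 for Nsdhl and -2.25 for Hsd17b7. Sqle, not called in natural mating, averaged 7.40 in Atf7-/- livers and 9.51 in WT livers of IVF mice, so that the genotypes stood in opposite order under the 2 ways of conception.

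Among other lipid, bile acid and steroid genes the differences were -2.26 for Lpin1, -0.97 for Elovl1, -1.09 for Elovl5, -3.49 for Fabp5, 0.65 for Acadl, -1.80 for Hsd3b7, -0.64 for Amacr, 0.97 for Akr1d1 and 0.92 for Baat. Cyp7a1, with 3.43, averaged 11.39 in Atf7-/- livers and 9.34 in WT livers of IVF mice, the reverse of its order in natural mating. Steroid enzymes gave -4.79 for Akr1c18, 2.15 for Akr1c19, -1.28 for Hsd17b2, -0.68 for Hsd11b1, -1.17 for Srd5a3 and 1.24 for Hsd3b2. The value of Akr1c18 rests on means of 7.17 in Atf7-/- livers and 8.83 in WT livers after IVF.

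Drug and glutathione enzymes gave -0.85 for Gstm2, -1.28 for Gstm4, -1.53 for Gstm6, -0.82 for Gstm7, -1.15 for Gstt1, -1.45 for Gstt3, 1.24 for Cyp3a13 and 1.04 for Cyp3a25. The regulators Hnf4a and Cebpa differed by -0.74 and 0.76. Nucleotide genes gave -1.49 for Nt5e, -0.91 for Paics, 0.76 for Pfas, -1.57 for Uck2 and 1.76 for Upp2, and the RNA polymerase I subunit gene Znrd1 gave -1.18. Sugar and nitrogen enzymes gave -1.94 for Pgd, -2.00 for Pklr, -0.70 for Fbp1, -1.19 for Cs, 1.37 for Gpt and 0.68 for Arg1.

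Glycan genes gave -1.85 for Alg3, -1.07 for Alg12, -0.87 for Alg14, -0.96 for Dpagt1, -0.90 for Dad1 and -0.84 for Ost4. GPI anchor genes gave -0.79 for Pigb, -0.94 for Pigf, -0.98 for Pigl, -0.82 for Pigq, -0.77 for Pigs, -0.87 for Pigt, -0.86 for Pigu, -0.93 for Gpaa1 and 0.62 for Dpm1. Derl3, of protein export from the endoplasmic reticulum, gave -1.21.

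Respiratory chain genes gave -1.42 for Ndufs8, -1.04 for Ndufs7, -0.89 for Ndufb9, -0.90 for Atp5d, 0.99 for Ndufa4, 0.86 for Ndufb2, 1.01 for Uqcr11, 1.39 for Atp5k and 1.75 for Atp5l, and the import gene Timm8a1 gave 1.56. Ribosomal protein genes were all above 0, with 1.47 for Rpl24, 1.22 for Rps9, 1.31 for Rpl5, 1.32 for Rpl23a, 1.29 for Rps12, 1.12 for Rps25 and 1.09 for Rpsa. Splicing genes gave 1.84 for Srsf5, 1.05 for Hnrnpc, 0.82 for Ddx5, 0.78 for Hnrnph1, 0.74 for U2af1, 0.90 for Snrnp70 and -1.19 for Lsm8.

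Noncoding RNAs also had large differences above 0. They were 4.35 for Snord118, 3.91 for Snora73a, 3.90 for Snora73b, 3.88 for Snora44, 3.31 for Snora3, 3.14 for Snora31 and 3.27 for Vaultrc5. Others were 1.93 for Malat1, 1.90 for Snhg17, 1.60 for Rmrp, 1.21 for Gas5, 1.17 for Rny1 and 0.87 for Rpph1.

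Imprinted and cell cycle genes gave -1.22 for Peg10, -1.42 for Mest, -1.27 for Phlda2, -1.27 for Cenpa, -1.61 for Ube2c, -1.09 for Pold2 and -0.79 for Cdt1. Tubulin, matrix and mesenchymal genes gave -1.50 for Tubb6, -1.32 for Tubb5, -1.08 for Tubg1, -0.91 for Pdgfa, -1.14 for Nid1, -1.01 for Thbs1 and -0.89 for Pdgfrb. Endothelial, macrophage and immune genes gave -1.10 for Clec4g, -0.67 for Vsig4, 1.18 for Cd5l, 0.86 for C1qa, 0.80 for Mbl2, -0.87 for Cd59a and 0.89 for Oas2. Clock genes gave -0.93 for Clock, 1.83 for Per3, 0.91 for Per2 and -0.81 for Per1, the last of which averaged 6.84 in Atf7-/- livers and 7.48 in WT livers of IVF mice and was not called in natural mating.

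The remaining differences were -0.67 for Creb3l1, 0.73 for Map2k6, -2.00 for Dusp1, -0.77 for Stat5b, -2.31 for Ifi202b, -2.48 for Aqp8, -2.03 for Rnf144b, -1.82 for Slc44a1, -2.06 for Ly96, -2.92 for Rdh11, -2.23 for Spon2, -2.11 for Map1lc3b, -2.06 for Prxl2a, 1.98 for Myo9a and 1.73 for Tmem38b. The natural mating values of Ifi202b overlapped between genotypes, and it was called in IVF livers.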

How the results depend on the processing

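Counts of called probe sets kept within 1.5 times their main values (1332 higher, 1274 lower and 2148 for the difference between genotype effects) under other fits and scalings, and moved with the thresholds and the choice of probe sets. A fold of at least 2 gave 386 higher, 524 lower and 986 differences. No fold threshold gave 2527 higher and 2240 lower, and an adjusted p of at most 0.01 gave 782 lower and 750 differences. Probe sets with 1 symbol gave 527 lower, where fewer were tested, and averaging the probe sets of each symbol gave 883 higher, 387 lower and 1360 differences. The share of higher calls was 51.1% in the main fit, 64.7% among probe sets with 1 symbol and 69.5% among means over a symbol. Centring each array on its median gave 58.6% higher, and further quantile normalization gave 49.6%. Leaving out 1 array gave 1095 to 1339 higher, 1003 to 1420 lower and 1490 to 2482 differences, the last highest without WT replicate 3. Atf7 was called under every alternative run (-2.92 to -2.74 with 1 array left out). Deviations of same-numbered natural mating mice correlated at 0.181, 0.0562 and 0.0321, and those of unlike-numbered mice at -0.128 to 0.0624. These values do not settle whether replicate numbers pair the mice. The replicate block gave 1316 higher, 1271 lower and 2020 differences, with 8 of 192 named calls lost. Of those 192 genes, 132 kept the call without each array in turn, 28 lost it in a fit of only the 6 natural mating arrays and 7 with centred arrays, and none changed sign under the alternatives run. Further alternatives (intensity trend, array weights, dim probe sets left out) ended 0, 8 and 0 of the named calls. With 3 arrays a group, small changes near the thresholds are the least certain, and the array signal gives no depth.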
